A study of Homo sapiens with 15 samples.

Results

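In USP7-knockout DLD1 cells, 59 genes that the parental cells transcribed were listed at or near 0. They were the genes with a mean above 50 normalized counts in parental cells and a mean below 2% of that in knockout cells, 59 of 22705 genes in the table and 0.506% of the 11659 genes with a parental mean above 50. DLD1 is an established human colorectal cancer line, and its poly(A) RNA was sequenced in 5 groups of 3 stranded libraries. In 3 groups the cells were knockout cells that carry a doxycycline-inducible, GFP-tagged USP7 on a Tet-ON plasmid pair kept under G418 selection, given 1 µg/ml doxycycline for 1, 3 or 9 days. Another group (KO) was labelled as the same inducible knockout without doxycycline, and the last (WT) was the untreated parental line. Whether the knockout line is 1 clone is not stated in the labels, so the knockout, the clone and the plasmids cannot be told apart in KO against WT. The reverse pattern, a KO mean above 50 with a WT mean below 2% of it, was found for 0 genes.

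USP7 is a deubiquitinase that acts, among other substrates, on proteins of the p53 pathway and on variant forms of Polycomb repressive complex 1, a complex that ubiquitinates histone H2A at silent genes. Genes can be shut off in a cell line by Polycomb marks, by DNA methylation at CpG-rich promoters, by histone H3 lysine 9 methylation or by loss of the DNA itself, and RNA levels do not tell these apart. KRAB and other C2H2 zinc finger proteins, the largest family among the 59 genes by symbol, bind DNA through repeated zinc fingers, and many recruit repressors to transposable elements. The USP7 transcript had 1403, 1369.6 and 1395 normalized counts in KO libraries. It had 8635, 7888 and 8193 at day 1, 7819, 7491 and 8174 at day 3, and 4945, 4402 and 5017 at day 9, against 3421, 3373 and 3382 in WT libraries. USP7 was thus lower in KO and higher in each doxycycline group than in WT, and the values do not separate the transgene from the endogenous transcript.

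The deposited values are normalized counts, made per the submitters' processing notes from reads counted per gene and scaled between libraries; their totals were 14741094 to 15347043 per library, and 20857 to 21314 genes were above 0. The labels call the replicates biological without stating that they were separate cultures, and p-values therefore speak only of the spread among these libraries, which may be technical. In the table's column names the WT, KO and day 1 libraries (9) carried one project code and the day 3 and day 9 libraries (6) another. Day 3 or day 9 against KO, day 1 or WT therefore cannot be told apart from the change of code, whereas day 1 against KO and day 9 against day 3 each lay within 1 code. Of the colorectal epithelial marker list, 9 of 10 genes were in the table and none was at 0 in every group. KRT20 was the one marker among the 59 silent genes, and the list summed to 106920 at day 9, 157030 in KO and 102960 in WT. Of the marker lists of other cell types, 2 of 6 leukocyte genes, 2 of 6 fibroblast genes and 1 of 4 endothelial genes were in the table. They summed to 23.2, 77.2 and 40.4 at day 9, 42.8, 84.0 and 42.8 in KO, and 21.3, 74.4 and 25.9 in WT. Of the neural and kidney list, 0 of 4 genes were in the table.

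The promoters of the 6 highest silent genes with an entry, and of SH3BGRL, the highest of those that stayed at 0 at every time, show how different these start regions were. SH3BGRL was added after the values had been seen. The sequences are from RefSeq (GRCh38.p14), run 5′ to 3′ on the gene's strand from 250 bases before to 50 after the annotated start, and capitals mark each CG dinucleotide. MAGED1 lies at chrX:51802826-51803125 (+), KCNJ5 at chr11:128891106-128891405 (+) and SPIN3 at chrX:56995492-56995791 (-). TEAD2 lies at chr19:49362367-49362666 (-), ZNF680 at chr7:64563022-64563321 (-), ZNF780B at chr19:40056182-40056481 (-) and SH3BGRL at chrX:81201852-81202151 (+).
MAGED1: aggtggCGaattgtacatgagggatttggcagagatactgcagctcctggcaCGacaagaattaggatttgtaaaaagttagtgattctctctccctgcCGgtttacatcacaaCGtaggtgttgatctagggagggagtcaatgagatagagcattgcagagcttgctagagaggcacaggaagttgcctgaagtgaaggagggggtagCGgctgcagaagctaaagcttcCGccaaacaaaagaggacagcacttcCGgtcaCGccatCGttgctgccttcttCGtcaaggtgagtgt
KCNJ5: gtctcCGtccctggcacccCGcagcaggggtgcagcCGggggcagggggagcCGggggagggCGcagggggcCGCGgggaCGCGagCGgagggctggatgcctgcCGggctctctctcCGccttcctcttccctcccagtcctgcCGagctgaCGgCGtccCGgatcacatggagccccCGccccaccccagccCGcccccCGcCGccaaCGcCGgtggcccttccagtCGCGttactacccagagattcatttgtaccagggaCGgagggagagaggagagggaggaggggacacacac
SPIN3: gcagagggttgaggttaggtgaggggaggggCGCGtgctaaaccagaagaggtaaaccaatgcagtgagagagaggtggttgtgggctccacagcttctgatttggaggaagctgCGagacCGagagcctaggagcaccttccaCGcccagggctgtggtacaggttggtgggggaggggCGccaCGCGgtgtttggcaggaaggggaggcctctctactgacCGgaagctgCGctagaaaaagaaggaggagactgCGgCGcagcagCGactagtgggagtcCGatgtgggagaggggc
TEAD2: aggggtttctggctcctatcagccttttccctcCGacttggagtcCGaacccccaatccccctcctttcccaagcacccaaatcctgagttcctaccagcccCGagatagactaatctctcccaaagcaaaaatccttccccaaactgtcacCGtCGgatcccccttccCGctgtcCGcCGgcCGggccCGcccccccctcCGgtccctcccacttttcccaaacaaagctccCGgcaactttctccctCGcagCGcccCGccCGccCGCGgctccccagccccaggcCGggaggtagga
ZNF680: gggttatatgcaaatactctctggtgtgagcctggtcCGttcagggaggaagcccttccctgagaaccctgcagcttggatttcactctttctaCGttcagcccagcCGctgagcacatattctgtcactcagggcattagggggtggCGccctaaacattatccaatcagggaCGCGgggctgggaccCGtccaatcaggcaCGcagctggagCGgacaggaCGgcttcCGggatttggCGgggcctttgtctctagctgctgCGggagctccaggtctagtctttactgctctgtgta
ZNF780B: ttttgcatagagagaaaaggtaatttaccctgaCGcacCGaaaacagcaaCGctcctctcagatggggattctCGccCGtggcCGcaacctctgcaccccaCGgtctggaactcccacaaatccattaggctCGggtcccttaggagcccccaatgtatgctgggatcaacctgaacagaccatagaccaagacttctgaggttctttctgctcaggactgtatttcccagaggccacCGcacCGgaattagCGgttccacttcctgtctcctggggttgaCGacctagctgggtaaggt
SH3BGRL: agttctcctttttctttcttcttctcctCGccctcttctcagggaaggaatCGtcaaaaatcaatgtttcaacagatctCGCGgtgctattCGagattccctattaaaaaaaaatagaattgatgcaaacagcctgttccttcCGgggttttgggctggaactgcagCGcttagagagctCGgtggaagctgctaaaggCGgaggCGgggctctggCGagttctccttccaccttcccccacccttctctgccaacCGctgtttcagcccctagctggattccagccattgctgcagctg
These windows held 10 CG dinucleotides in MAGED1, 25 in KCNJ5, 14 in SPIN3, 19 in TEAD2, 13 in ZNF680, 12 in ZNF780B and 12 in SH3BGRL. The motif CG, which reads the same on both strands, was in all 47 of the 59 genes' promoters with an entry and in 99.5% of 10875 promoters of tested genes. The median number was 16 for the silent genes and 26 for tested genes. Promoters with at least 50% G and C and an observed over expected CG ratio of at least 0.6 made up 57.4% of the silent genes' promoters (27 of 47) and 79.3% of those of tested genes. The number ranged widely among the 47: the intestinal keratin gene KRT20 had 2 CG dinucleotides, and GABRE and KRTAP5-AS1 had 41 each. These are descriptions of annotated windows, and methylation was not measured here.

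Of the 59 genes, 50 were at 0 in all 3 KO libraries. The other 9 had KO means up to 3.32, and no KO library exceeded 4.98 for any of them. WT means ran from 51.8 (ANGPT1) to 796 (MAGED1) with a median of 120.3, and 13 were above 200. All 59 genes passed the filter on low values, through the WT libraries that the rule chose them for. In KO against WT all 59 were past the limma threshold and lower, where 24.8% of tested genes were; that contrast chose the genes, so nothing is read from it. At the 2% line, KIF26B (1.73%), UAP1L1 (1.81%), NIBAN1 (1.94%) and HERC5 (1.94%) lay just inside. The next gene inside, SNCAIP, was well below it, at 0.537%. HHIP (2.005%), FAAH2 (2.07%), ZNF675 (2.15%), RAB36 (2.39%) and PLEKHB1 (3.06%) were the nearest outside. At the WT line, ANGPT1 (51.8), NECTIN3 (53.8) and ZNF841 (54.5) lay just inside, and KCTD14 (49.8), ZFP30 (46.5) and TP53INP1 (44.9), all at 0 in KO, just outside.

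At days 3 and 9 most of the 59 genes had values near 21% of their WT level, and 8 were still listed at 0. The genes fell into 3 patterns, a split made after the values had been seen. In 8 genes every KO-line library with doxycycline was at 0. In 38 genes every day 1 library was at 0 and days 3 and 9 were above 0, with medians of 21.2% of WT at day 3 and 21.5% at day 9. In the remaining 13 genes at least 1 day 1 library was above 0, with medians of 0.37% in KO, 2.71% at day 1, 30.6% at day 3 and 30.7% at day 9. Only 6 of these 13 were at 0 in KO, so the split is not by a rise over KO. The log2 change at day 1 against KO was above 0 in 11 genes, whereas UAP1L1 and HERC5 had lower means at day 1. In bulk RNA, a lower level in all cells and the WT level in a fraction of cells cannot be told apart. Summed over the 59 genes, the libraries reached 0.694, 1.20 and 1.04% of the WT sum at day 1, 22.1, 22.4 and 22.002% at day 3, and 22.5, 23.2 and 23.1% at day 9. The KO sums were 0.114, 0.104 and 0.125%.

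**Figure D1:**
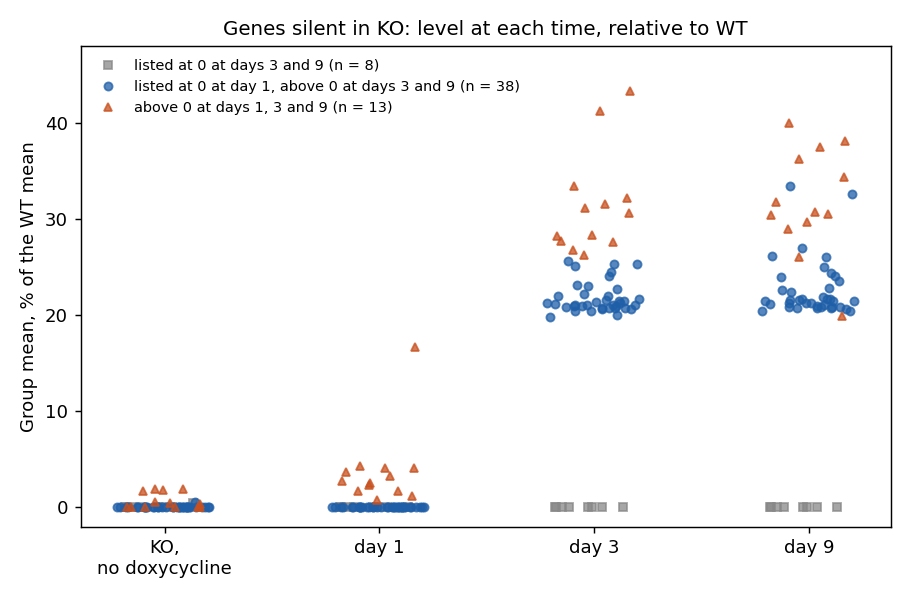
Each point is 1 of the 59 genes; the vertical axis gives the group mean as a percentage of the WT mean, and the groups run from KO through days 1, 3 and 9 of doxycycline. The 38 genes listed at 0 at day 1 lay between 19.8 and 25.7% of WT at day 3, and the 8 genes in grey stayed at 0.

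The values at days 3 and 9 had a property that bears on every result below. Expressed as multiples of the library's smallest step, by which each value in that library could be divided without remainder (tolerance 1e-06), they varied less between libraries than those of other genes. KLF8, a Krüppel-like transcription factor, had the same multiple, 12, in all 6 libraries. FBP1, the gluconeogenic fructose-bisphosphatase, lay between 36 and 37, and the mucin-type glycosyltransferase GALNT5 between 23 and 24. MAGED1, the highest of the 59, lay between 165 and 171. For the 51 genes above 0 the median ratio of variance to mean within a day was 0.196, against 1.15 in 4354 other tested genes with means in the same range, where counting alone would give 1 if each step were 1 read, which was not established. The ratio was below 0.5 in 80.4% of the 51 and in 16.9% of the others. All 6 multiples lay within 3 of each other in 17 of the 51 genes (33.3%) and in 13 of the others (0.299%). The small spread was strongest in the 38 genes at 0 at day 1 (median 0.0777), and was 0.632 in the 13 others. In WT libraries the 59 genes varied like other genes, with medians of 0.893 for the 59 and 0.811 for 6818 genes of the same WT range. The low spread was found in libraries of the second project code, and its cause was not tested. No source used here states whether values of days 3 and 9 were adjusted further before deposit, and this was not tested, so these values may not be direct measurements of each library. Every level at days 3 and 9 and every test that involves these days rests on them, and they are given as deposited. The fit of 15 libraries takes 1 spread per gene over all groups. Its tests of day 1 against KO therefore draw on the spread within days 3 and 9 too.

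**Figure D2:**
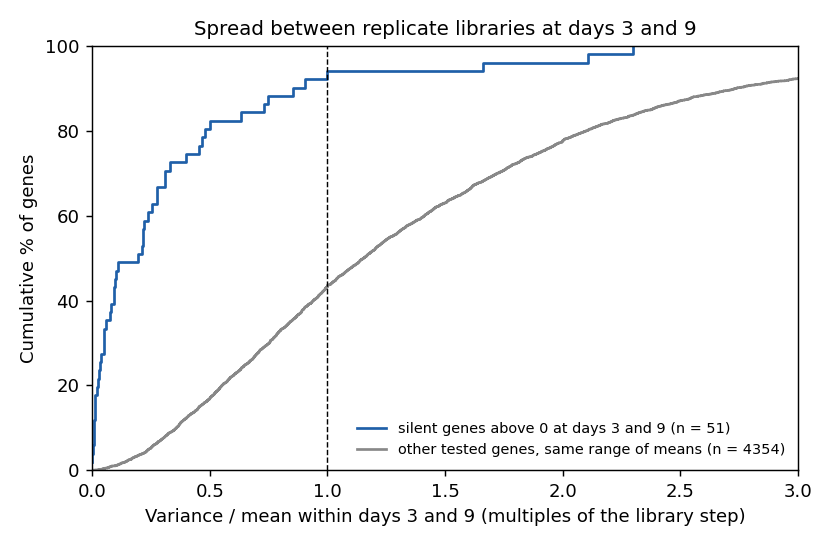
Cumulative percentage of genes against the ratio of variance to mean between replicate libraries within days 3 and 9, in multiples of the library step; the dashed line at 1 is the ratio of counting alone if each step were 1 read, and the axis ends at 3. The 51 silent genes above 0 (median 0.196) lay to the left of 4354 other tested genes of the same range of means (median 1.15).

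High and low genes stood at similar shares of WT at days 3 and 9. MAGED1, a MAGE-family gene that encodes an adaptor of ubiquitin ligases, had 164, 169.9 and 167 at day 3 and 165, 164 and 167 at day 9, against 771, 828 and 789 in WT libraries. KCNJ5, an inward rectifier potassium channel subunit, had 125, 136 and 134 at day 3 and 155, 167 and 147 at day 9, against 575, 603 and 619 in WT. Both were at 0 in the 3 KO and 3 day 1 libraries and overlapped no WT library at any time. At the low end, KLF8 had 11.9 in every day 3 and day 9 library, against 59.8, 40.0 and 66.6 in WT. MAGED1 therefore stood at 21.0 and 20.8% of WT at days 3 and 9, and KLF8 at 21.5% at both.

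**Figure D3:**
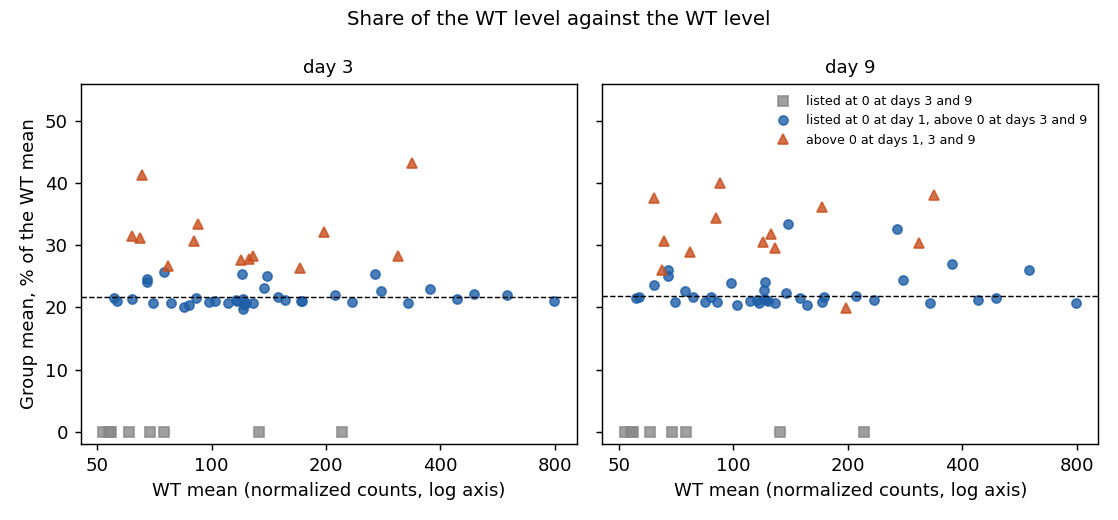
Group mean as a percentage of the WT mean (vertical axis) against the WT mean in normalized counts (log axis) for the 59 genes, at day 3 and day 9; dashed lines mark the medians of the 51 genes above 0, 21.6 and 21.9%. The 38 genes at 0 at day 1 and above 0 later (circles) lay between 19.8 and 25.7% at day 3 and between 20.4 and 33.5% at day 9, the 13 genes above 0 at day 1 (triangles) lay mostly above the line, and the 8 genes at 0 throughout (squares) lie on the axis.

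Genes just outside the rule had shares that followed on. Of 68 genes with a KO mean below 2% of WT and a WT mean above 10 and up to 50, 16 were at 0 at days 3 and 9. The other 52 had medians of 22.8% at day 3 and 23.2% at day 9. Genes with WT means above 50 were then grouped by their KO level. Those at 2 to 10% of WT in KO (25 genes) had medians of 9.98, 34.6 and 37.2% of WT at days 1, 3 and 9, and those at 20 to 35% (85 genes) had 34.1, 51.2 and 54.5%. At the other end, genes at 200 to 300% of WT in KO (142) had medians of 189.6, 145 and 141%. In every class of genes with a KO mean up to 300% of WT, apart from the class at 90 to 110%, the medians of days 3 and 9 lay between the KO median and 100%. In that class (4346 genes) the medians were 101 and 100.3% at days 3 and 9, against 99.9% in KO. The mean of WT, KO and day 1, the groups of the first code, was also taken per gene. Its median was 33.3% of WT in the 59 silent genes, 38.9% in the class at 2 to 10%, 54.0% at 20 to 35% and 172% at 200 to 300%. In the 59 genes this value is arithmetic: the rule put KO near 0, and day 1 was at 0 in 46 of them. In the other classes too, the KO level that formed the class enters this mean, so nothing is read from it. Over all 15134 tested genes the mean log2 value of the second project code minus that of the first had 5th and 95th percentiles of -0.22 and 0.22, narrower than the -0.36 and 0.41 of day 9 minus day 3 and the -0.41 and 0.42 of day 1 minus KO. The first of these ranges averages more libraries (6 against 9) than the others (3 against 3), and what part the project code plays was not tested.

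**Figure D4:**
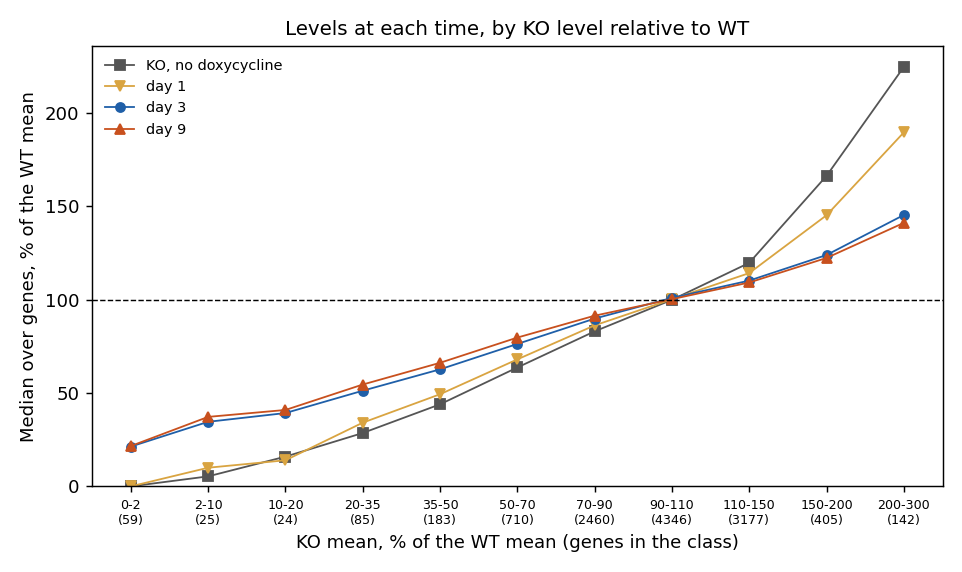
Genes with a WT mean above 50, grouped by their KO mean as a percentage of WT (horizontal axis, number of genes in brackets); the vertical axis gives the median over genes of each group mean as a percentage of WT. The 59 silent genes are the leftmost class, at 0, 0, 21.3 and 21.6% in KO and at days 1, 3 and 9, and the day 3 and day 9 lines lay close together in every class.

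By symbol pattern (ZNF, ZFP, ZSCAN and the like), 15 of the 59 genes (25.4%) were C2H2 zinc finger genes, against 2.75% of tested genes (416 of 15134). C2H2 genes with other symbols, such as the Krüppel-like gene KLF8, are not in these counts. The 15 were 13 ZNF genes, 1 of them the pseudogene ZNF702P, and ZFP14 and ZFP69. WT means ran from 54.5 (ZNF841) to 329 (ZNF680), a median of 98.4. ZNF680 had 67.3, 67.6 and 69.6 at day 3 and 69.7, 67.4 and 67.7 at day 9, against 323, 344 and 321 in WT, and was at 0 in KO and at day 1. ZNF264 (36.4 and 37.4 at days 3 and 9, 173 in WT), ZNF182 (24.8, 25.8 and 122), ZNF112 (25.8, 29.2 and 121) and ZFP14 (31.8, 30.8 and 138) did the same at lower levels. ZNF780B was the one zinc finger gene above 0 at day 1, with 9.07, 7.01 and 8.97, and it had 83.2, 88.4 and 89.5 at day 3 and 75.6, 90.2 and 115 at day 9, against 301, 324 and 300.4 in WT. ZNF432, ZNF738 and ZNF841 stayed at 0 at days 1, 3 and 9. The genes of this pattern were not silent as a whole: 3.61% of the 416 tested were among the 59. In KO against WT 150 of the 416 were lower (36.1%) and 59 higher (14.2%), where 24.8% of all tested genes were called each way. Their median log2 change was -0.13, against 0.00 for all genes. Zinc finger genes have close paralogues, so single values in this family are less certain where reads could match more than 1 copy.

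A further 7 genes act in transcription, chromatin or ubiquitin pathways, and their median WT mean, 375, was the highest of any functional group. MAGED1 was the highest. WDR76, a WD-repeat protein of the DNA damage response, had 105, 115 and 106 at day 3 and 108, 108 and 101 at day 9, against 511, 498 and 459 in WT. SPIN3, a spindlin of the family that reads methylated histone H3, had 97.0, 91.4 and 93.5 at day 3 and 99.5, 88.2 and 93.5 at day 9, against 453, 418 and 452 in WT. TEAD2, a DNA-binding partner of YAP, had 92.1, 82.5 and 84.5 at day 3 and 105, 101 and 98.5 at day 9, against 392, 373 and 362 in WT. These 4 genes were at 0 in every KO and day 1 library and overlapped no WT library at any time. HLTF, a helicase-like ubiquitin ligase of DNA damage tolerance, had means of 25.5 and 25.8 at days 3 and 9, against 123 in WT. HERC5, the ligase that attaches the interferon-induced modifier ISG15, was one of the genes not fully at 0: it had 1.99, 2.99 and 1.99 in KO and 3.02, 3.00 and 0 at day 1, against 129, 113 and 117 in WT.

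The close relatives of these genes were transcribed in KO. TEAD1, TEAD3 and TEAD4 stood at 99.2 to 122% of WT in KO where TEAD2 was at 0, MAGED2 stood at 83.1% where MAGED1 was at 0, and SPIN1, SPIN2B and SPIN4 at 59.2 to 133%. The 8 other RASSF genes in the table were at 54.1 to 159.9% of WT where RASSF10 was at 0. The 5 other NME genes were at 87.1 to 122% where NME4 was at 0, and the 13 other KLF genes at 53.7 to 170.4% where KLF8 was at 0. These families were chosen after the values had been seen. Some of these ranges end on low values: RASSF4 averaged 10.6 in KO and 6.64 in WT, KLF15 28.9 and 16.9, and SPIN2B 16.9 and 28.6.

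The 11 metabolic enzymes and 5 channel or transport genes came from many pathways. FBP1 had 35.6, 36.8 and 35.8 at day 3 and 35.8, 35.7 and 35.8 at day 9, against 186, 171 and 157 in WT. NME4, the mitochondrial nucleoside diphosphate kinase, had 62.4, 69.6 and 58.7 at day 3 and 64.7, 70.4 and 69.7 at day 9, against 244, 291 and 304 in WT. Both were at 0 before day 3. GPX3, a secreted glutathione peroxidase, stood at 20.5% of WT at day 9 and UAP1L1 at 29.6%. Of the channel genes, CHRNA1, the muscle acetylcholine receptor alpha subunit, had 4.03, 3.00 and 6.98 at day 1, 35.6, 28.8 and 39.8 at day 3 and 38.8, 41.6 and 38.8 at day 9, against 117, 138 and 121 in WT. SLC30A10, a manganese exporter, reached 35.1 at day 3 and 46.7 at day 9, against 139.6 in WT. GABRE, a GABA receptor subunit gene, was listed at 0 in every library of the knockout line, against 119.6, 145 and 134 in WT.

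Among 6 cytoskeletal and ciliary genes and 12 genes of signalling, membrane or adhesion proteins, the shares varied more than among zinc finger genes. TSPOAP1, which encodes a scaffold protein of the outer mitochondrial translocator protein and of synaptic active zones, was at 0 in all KO libraries and had 43.3, 69.1 and 55.8 at day 1. It had 137, 148 and 152 at day 3 and 106, 139.8 and 139 at day 9, against 336, 335 and 339 in WT, which is 16.7, 43.3 and 38.1% of WT at days 1, 3 and 9. NIBAN1, a stress-induced regulator of translation, had 2.99, 2.99 and 3.98 in KO, 2.01, 5.01 and 4.98 at day 1, 47.5, 45.7 and 41.8 at day 3 and 60.7, 63.5 and 61.7 at day 9, against 170.4, 173 and 170.1 in WT. RASSF10, a Ras-association domain gene, had 46.5, 46.7 and 45.8 at day 3 and 47.8, 43.6 and 46.8 at day 9, against 229, 229 and 174 in WT. MYLK, the myosin light chain kinase gene, had 66.3, 70.6 and 67.6 at day 3 and 74.6, 96.2 and 92.5 at day 9, against 254, 286 and 268 in WT. The cilium motor gene DYNC2H1 stayed near the common share, at 21.0 and 20.7% of WT at days 3 and 9. Of the 3 noncoding RNAs, LINC01152 had 27.5 at day 3 and 30.8 at day 9, against 89.7 in WT, LINC01515 had 16.9 and 17.6, against 84.4, and KRTAP5-AS1 had 19.5 and 23.2, against 61.8.

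The 8 genes that stayed at 0 were SH3BGRL, GABRE, ZNF432, ZNF738, RIBC2, ZNF841, NECTIN3 and ANGPT1. SH3BGRL, a small SH3-binding thioredoxin-fold protein gene, had 241, 217 and 202 in WT. ZNF432 had 62.8, 80.9 and 81.6 in WT and ZNF738 had 65.8, 60.9 and 79.6. RIBC2, a protein gene of ciliary microtubules, had 69.8, 55.9 and 55.7 in WT, the adhesion molecule gene NECTIN3 had 50.8, 57.9 and 52.7, and the angiopoietin gene ANGPT1 had 57.8, 51.9 and 45.8. In these 8 genes the 12 libraries of KO and days 1, 3 and 9 were at 0, apart from ZNF432, at 0.995 in KO replicate 2. Most of the 8 had low WT means: 6 were among the 16 genes with WT means up to 75.1, and the other 2, SH3BGRL and GABRE, among the 43 above that value, a split made after the values had been seen. Other genes of low WT level were above 0, such as KLF8 (55.5 in WT), PLA2G4A (56.5) and SNCAIP (61.8), which had 11.9, 11.9 and 13.2 at day 3. Of the 8 genes, 6 had a promoter entry, and all 6 passed the CG-rich limits with a median of 29 CG dinucleotides.

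Day 1 against KO and day 9 against day 3 were the comparisons within 1 project code. At day 1, 5 of the 59 genes were higher than KO and none lower by limma (Benjamini-Hochberg adjusted p below 0.05 over 15134 genes), where 4.94% of tested genes were higher and 5.97% lower. Since the rule took genes that are low in KO, this is a description. They included TSPOAP1 (adjusted p = 5.45e-16), ZNF780B (adjusted p = 2.78e-10), CHRNA1 (adjusted p = 2.62e-06) and LINC01152 (adjusted p = 0.000149). TSPOAP1, ZNF780B and CHRNA1 were listed at 0 in all 3 KO libraries, so no fold is given. LINC01152 had 4.03, 4.01 and 2.99 at day 1, against 0, 0.995 and 0 in KO. The adjusted p-values above rest on 1 spread per gene over all 15 libraries, days 3 and 9 included. When the 6 libraries compared were fitted alone, 1 of the 59 genes passed the filter on low values, TSPOAP1. It was past the threshold (adjusted p = 9.18e-06 by limma), with an SE of 0.315, against 0.16 in the fit of 15 libraries. The authors' deposited table gave an adjusted p for 51 of the 59 genes at day 1 against KO and called 4 of them higher, and it called 3.9% of its 13460 genes with an adjusted p higher.

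Between days 9 and 3, 0 of the 59 genes passed the limma threshold, where 7.42% of tested genes did in either direction, and 0 had an unadjusted p below 0.05. Of the 59, 8 were at 0 in all 6 libraries, so they could neither pass nor be free of overlap. The SEs of the 59 ran from 0.16 (MAGED1) to 0.61 (KIF26B), against a median of 0.0870 for all tested genes. The absence of calls therefore does not show equal levels. The day 9 and day 3 libraries did not overlap for 13 of the 59 genes, where they did not for 27.1% of tested genes. For 6 of the 59 genes (10.2%) the libraries did not overlap and the means differed by more than 10 normalized counts, where this held for 24.1% of tested genes. A fixed difference of 10 is harder to reach at low levels, such as the 11.9 of KLF8 at both days. These 2 shares therefore depend on the level of the genes and are not read as a difference between them. KRT20 had 38.8, 37.7 and 41.8 at day 9, against 62.4, 72.5 and 55.7 at day 3 (log2 change -0.67, SE 0.45, adjusted p = 0.42). NIBAN1 averaged 62.0 at day 9 and 45.0 at day 3 (log2 change 0.45, adjusted p = 0.253), MYLK 87.8 and 68.2 (adjusted p = 0.331) and SLC30A10 46.7 and 35.1 (adjusted p = 0.353). KCNJ5 averaged 156 at day 9 and 132 at day 3 (adjusted p = 0.415), and TEAD2 101 and 86.4 (adjusted p = 0.511), so that KRT20 was the one of the 6 with its lower values at day 9. The call on KRT20 turned on the libraries in the fit: with days 3 and 9 alone its adjusted p was 0.018 by limma, with an SE of 0.18. In the fit of 15 libraries KRT20 shares a spread with day 1, where its libraries had 0, 6.01 and 0.997.

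**Figure D5:**
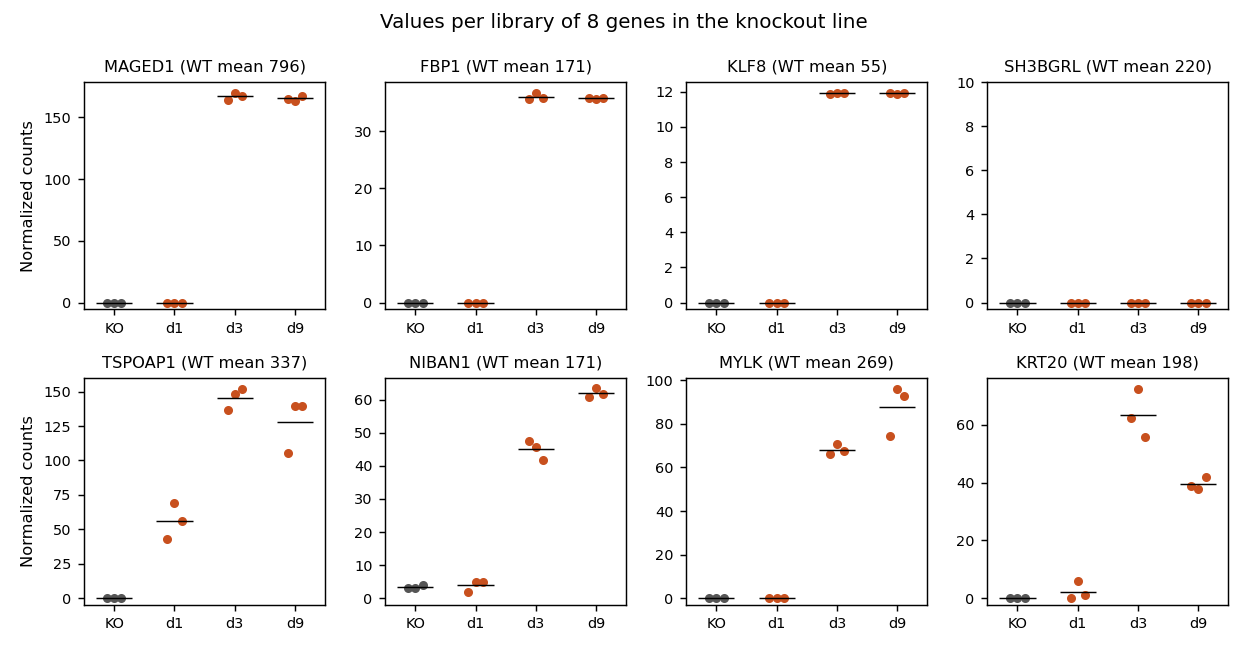
Normalized counts (vertical axis, linear) of 8 genes in each library (points) of KO and days 1, 3 and 9 of doxycycline; lines mark group means, and the WT mean is in each title. MAGED1, FBP1 and KLF8 had nearly the same value in all 6 libraries of days 3 and 9, SH3BGRL stayed at 0, and the day 9 points lay below those of day 3 for KRT20 and above them for NIBAN1.

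Against day 1, 51 of the 59 genes were higher at day 3 and the same number at day 9, and none was lower (limma). In all tested genes, 4% and 5.9% were higher and 3.36% and 6.24% lower. At day 1, 46 of the 59 genes were at 0 and could not be lower later, so these counts are descriptions. The counts were 51 and 51 also for day 3 and day 9 against KO, where 13.5% and 12.4% of tested genes were higher; KO chose the genes, so these are descriptions. In the authors' deposited table, 51 of the 59 were higher at day 3 and 51 at day 9 than in KO, where 10.2% of 15660 and 8.77% of 16541 genes with an adjusted p were. Of the 51 genes, 38 were listed at 0 in every day 1 library, which leaves 13 with a fold. TSPOAP1 had the smallest change of these, a log2 change of 1.19 at day 9 against day 1 (SE 0.16, adjusted p = 2.09e-05) and 1.38 at day 3 (SE 0.16, adjusted p = 4.95e-06). ZNF780B was higher by 3.33 at day 9 (SE 0.18, adjusted p = 2.23e-11) and 3.24 at day 3. HERC5 was higher by 3.89 at day 9 and 3.73 at day 3, and CHRNA1 by 2.91 and 2.71. Both comparisons cross the project codes, so days of doxycycline and project code cannot be told apart in them.

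The 59 genes lay on 18 chromosomes, and chromosome 19 held the most. It had 10 (16.9% of the 59, 6.69% of tested genes), of which 9 were C2H2 genes, a family clustered on that chromosome. Chromosome 1 held 9 (15.3%, against 10.2% of tested genes) and chromosome 11 held 6 (10.2%, against 5.7%). Chromosome X also held 6 (against 3.24% of tested genes): MAGED1, SPIN3, SH3BGRL, GABRE, ZNF182 and KLF8. These shares are descriptions without a test. A single pair, ZNF432 and ZNF841, were next to each other among tested genes in the RefSeq order, and both were at 0 at days 1, 3 and 9. Of the 116 nearest tested genes on either side that were not among the 59, 40 were lower in KO than in WT (34.5%, against 24.8% of tested genes) and 25 were higher. Their median log2 change was -0.05, against 0.00 for all tested genes, and 10 (8.62%, against 5.44%) were below 50% of WT.

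Of these neighbours, 4 were below 10% of their WT level in KO. HMGN5, a nucleosome-binding protein gene next to SH3BGRL, was listed at 0 in KO and at days 1, 3 and 9, as SH3BGRL was, against a mean of 42.9 in WT. RASSF10-DT, next to RASSF10, was at 0 in KO and at day 1 and at 10.3 and 9.28 at days 3 and 9, against 41.9 in WT. SLC6A16, next to TEAD2, was at 0 in KO and at day 1 and at 7.94 and 9.61 at days 3 and 9, against 35.9 in WT. ZNF493, next to ZNF738, was at 0 in KO and at day 1 and at 3.31 at both later times, against 14.9 in WT, while ZNF738 was at 0 throughout. How the counting treated strand was not stated in the sources, so reads of RASSF10 and RASSF10-DT, of TSPOAP1 and TSPOAP1-AS1, and of KRTAP5-AS1 and the genes it overlaps cannot be told apart. TSPOAP1-AS1 had 1.99 in KO, 4.34 at day 1, 7.94 at day 3 and 8.62 at day 9, against 11.96 in WT.

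None of the listed genes of the silencing machinery was among the 59. With 59 of 15134 tested genes in the set, lists of 12 to 25 genes would rarely hold a member, so nothing is read from this. In KO against WT the transcripts of the listed genes were called in both directions. Of 17 DNA methylation genes, 5 were higher and 5 lower, with a median log2 change of -0.03 against 0.00 for all genes. Of 22 genes of H3K9 methylation and the HUSH complex, 1 was higher and 8 lower (median -0.09). Of 12 PRC2 genes these counts were 3 and 4 (median -0.01), and of 25 PRC1 genes 9 and 5 (median 0.07). Single genes lay far from these medians. AUTS2, on the PRC1 list, averaged 234 in KO and 31.2 in WT (log2 change 2.87). ATF7IP2, on the H3K9 list, averaged 40.8 and 85.1 (log2 change -1.05). In all tested genes, 24.8% were higher and 24.8% lower. The list of cancer-testis and MAGE genes, taken by symbol pattern, held 2 of the 59, MAGED1 and SPIN3, among 26 tested (7.69%). That share rests on 2 genes, and over all tested genes it was 59 of 15134. On this list 11 genes were higher and 7 lower, with a median of 0.12.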

How the data were processed

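All values came from 1 deposited table that covers the poly(A) RNA of 15 DLD1 libraries. Per the submitters' processing notes, reads were aligned with HISAT2 2.1.0 to hg19, counted per gene with HTSeq and normalized with DESeq2 (annotation, strand setting and the versions of HTSeq and DESeq2: not given in the sources used here). What the authors deposited is a signal, the normalized count of each gene in each library, and within a library each value was a whole number of steps (step size 0.9899 to 1.007). Per the file headers the authors added log2 changes relative to KO and their p-values, used only where named. Of 22706 genes, 1 with a text cell was left out.

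The genes, functional groups and lists were chosen with earlier results of these data known. From the values, log2(value + 1) was fitted by limma 3.58.1 (statmod 1.5.0, R 4.3.3) to all 15 libraries, 1 mean per group, eBayes with trend and robust options, for 15134 genes with at least 10 in at least 3 libraries, two-sided, Benjamini-Hochberg, threshold 0.05. The median SE of a log2 change was 0.0870. The planned design named a count test for raw counts; the table holds normalized values, so the fit planned for those was used. The fit was tested on simulated data. Genes were named by WT level, size of change, share of WT at day 9, nearness to the thresholds, family and adjacency; the 3 patterns, the spread between libraries, relatives, non-overlapping genes, classes by KO level and plotted genes were chosen after the values were seen. Chromosomes, gene order and promoters came by symbol from RefSeq (GRCh38.p14); 59 genes matched a chromosome and 47 a promoter. The values of 1 of the 59 genes are counted but not reported here by name. Alternatives covered the pseudocount, filter, scaling, libraries fitted, replicate block and each library left out. Tables were made in Python 3.11.15 (numpy 2.4.6, pandas 2.3.3) and plots with matplotlib 3.10.9.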

Additional observations from a re-analysis of the deposited data

How the results depend on the processing

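The number of genes chosen by the rule was 59, 35 with a WT mean above 100 in place of 50, 55 and 70 with a KO mean below 1% and 5% of WT, and 57 to 62 when each WT or KO library was left out. The number of these genes past the threshold moved by at most 2 under the pseudocounts, filters, scaling and replicate block tried. Fits of only the 6 libraries compared gave 50 to 51 for days 3 and 9 against day 1 or KO, and moved the other 2: day 9 against day 3 gave 1 in place of 0 (KRT20, lower), and day 1 against KO gave 1 in place of 5 (TSPOAP1), since the filter then left 1 of the 59 genes. With each library left out in turn, day 1 against KO gave 4 to 7, day 9 against day 3 gave 0 to 0, and the other 4 comparisons of days 1, 3 and 9 and KO gave 51 to 51. Over all genes, fits of 6 libraries called 632 (1650 with all 15) at day 1 against KO, 385 (1113) at day 3 against day 1 and 812 (1837) at day 9 against day 1. Leaving out a library moved these to 955 to 2416, 738 to 2026 and 1341 to 2702, and day 9 against day 3 to 628 to 927 (1123); the cause was not tested. Same-numbered replicates had r above 0.1 in 6 of 30 pairs (-0.0608 to 0.252), and no label pairs them, so they were not treated as paired; 11 of 15 libraries correlated best with their own number, a hint from the data and not from the design. With the replicate block the counts stayed at 51, 51, 0, 5, 51 and 51, and over all genes day 9 against day 1 gave 2202 in place of 1837. The planned count tests were not run, since the table holds normalized values. In a single library a value of 0 and one of a few normalized counts may differ by chance alone; the split by day 1 values above 0 rests on such values.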
